A study of Homo sapiens with 12 samples.

Results

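SYP, SYT4, VGF, BSN and AP3B2 are 5 genes of the secretory and synaptic vesicle machinery, taken by symbol from the 13001 genes of the count and TPM tables. All 5 were present in both tables. They were chosen by results of these libraries, among them their fold changes in counts with SRRM4 against EV, so their values in comparisons that use the SRRM4 libraries are given as descriptions, without a test. The cells were LNCaP, an androgen-sensitive line from a lymph node metastasis of prostate cancer, at passage 8. They were grown in RPMI 1640 with 10% fetal bovine serum and transfected with Lipofectamine 2000, and the medium was changed after 6 hours. The 4 groups of 3 libraries received a plasmid coding for SRRM4, for LSD1+8a or for LSD1, or an empty vector (EV). SRRM4 directs neurons' splicing machinery to include very short exons. KDM1A codes for the histone demethylase LSD1, of which LSD1+8a is the form that carries such an exon. The series title places the question in neuroendocrine prostate cancer, as a disease in which SRRM4 mediates this splicing. Polyadenylated RNA of whole cultures was sequenced, so a gain in every cell and a large gain in a few transfected cells cannot be told apart.

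Neuroendocrine cells store peptides in dense-core granules and small transmitters in synaptic-like vesicles, and release both when calcium enters. Synaptophysin, synaptotagmins and granins are membrane and cargo proteins of these organelles and serve as tissue markers of neuroendocrine tumours. Many such genes are silenced outside neurons by the repressor REST, which binds a conserved promoter or intron element. Of the 5 genes, SYP encodes synaptophysin, the most abundant membrane protein of synaptic vesicles. SYT4 encodes synaptotagmin-4, an atypical member of the vesicle calcium sensor family. VGF encodes a granin-like precursor of secreted neuropeptides, BSN encodes bassoon, a giant scaffold of the presynaptic active zone, and AP3B2 encodes the neuronal beta subunit of AP-3, the adaptor complex that sorts cargo into vesicles.

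Promoter sequences from RefSeq (build GRCh38.p14, 250 bases before to 50 after each gene's start) were matched by symbol for all 5 genes and searched on both strands. The REST element was searched as TTCAGCACC and GGACAG with 2 free bases between them, each of these motifs also alone, and the cAMP response element as TGACGTCA. The promoters of VGF and BSN are shown because they held matches, which are in capitals, as the 250 bases before the start, 5′ to 3′ on the strand of the gene (chr7:101165570-101165819, minus strand, and chr3:49554227-49554476, plus strand).
VGF: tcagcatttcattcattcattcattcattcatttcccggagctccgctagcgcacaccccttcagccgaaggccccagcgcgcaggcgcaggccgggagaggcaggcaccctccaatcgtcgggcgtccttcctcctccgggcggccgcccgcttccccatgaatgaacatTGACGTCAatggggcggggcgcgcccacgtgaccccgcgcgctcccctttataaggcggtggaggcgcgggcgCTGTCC
BSN: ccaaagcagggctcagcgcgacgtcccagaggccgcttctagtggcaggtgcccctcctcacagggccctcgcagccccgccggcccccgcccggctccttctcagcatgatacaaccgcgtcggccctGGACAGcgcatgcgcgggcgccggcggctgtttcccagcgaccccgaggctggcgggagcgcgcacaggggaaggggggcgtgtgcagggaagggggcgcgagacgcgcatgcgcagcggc
VGF element: TTCAGCACgctGGACAG
The VGF promoter held an exact cAMP response element at bases -79 to -72, a motif found in 1.85% of the 35116 promoters. It also held a REST element with 1 mismatch on the opposite strand, at bases -6 to 11 around the start (chr7:101165559-101165575, printed last on the plus strand with the letters that match the motif in capitals). A match with at most 1 mismatch occurred in 0.0541% of promoters and an exact one in 0.0142%. GGACAG alone, which lies within the VGF element, also occurred in BSN at bases -121 to -116, but 20.5% of all promoters hold it. SYP, SYT4 and AP3B2 held no match to the motifs searched in this window. G+C content was 76% in BSN, 71.3% in SYP, 67.7% in VGF, 66.3% in AP3B2 and 53.3% in SYT4, with 37.6% (SYT4) to 92.2% (BSN) of promoters below them.

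Total counts over the listed genes, in units of 1e6, were 10.9 to 11.5 per SRRM4 library, 12.1 to 13.4 for LSD1+8a, 11.7 to 12.6 for LSD1 and 12.8 to 13.6 for EV. KDM1A stood at 2268 ± 316 CPM in LSD1+8a libraries and 540 ± 40.5 CPM in LSD1 libraries, against 96.3 ± 4.06 CPM with SRRM4 and 94.3 ± 0.828 CPM with EV (SD, n = 3 each). CPM are counts scaled to library size with TMM factors, and TPM are the authors' length-scaled values. The isoform and the amount of KDM1A therefore differ together between the LSD1+8a and LSD1 cells. The RNA level of SRRM4 itself was not checked in this way. All 10 markers of luminal prostate cells (among them KLK3 and FOLH1) were measured, and their summed level was 5778 to 5803 TPM with SRRM4, 6261 to 6475 with LSD1+8a, 6507 to 6715 with LSD1 and 6299 to 6406 with EV. Of 19 markers of basal, fibroblast, leukocyte, endothelial and glial cells 6 were measured, with summed levels of 41.9 to 49.3, 42.4 to 51.3, 38.6 to 46.6 and 41.5 to 48.5 TPM in the same order. With SRRM4 against EV, the luminal markers KLK3, FOLH1 and TMPRSS2 were called lower and KRT8 higher, and of the 6 other-cell markers VWF was called lower (adjusted p under 0.05 in edgeR). FOLH1, TMPRSS2, KRT8 and VWF lost their calls with limma on TPM. The lower luminal sum moves with SRRM4, and its part in the results below was not tested. Separate cultures are not stated in the labels, so p-values measure library-to-library spread alone, which may be technical.

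SYP and VGF stood about 10-fold higher with SRRM4 than with EV, AP3B2 2.82-fold, BSN 2.31-fold and SYT4 1.44-fold. In all 5 genes the 3 SRRM4 libraries lay above each of the other 9 libraries. Because the genes were chosen by SRRM4 results, this gap is only a description, and its share over all genes was not counted. With LSD1+8a and with LSD1 none of the 5 differed from EV by the test, and their libraries overlapped with those of EV.

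**Figure D1:**
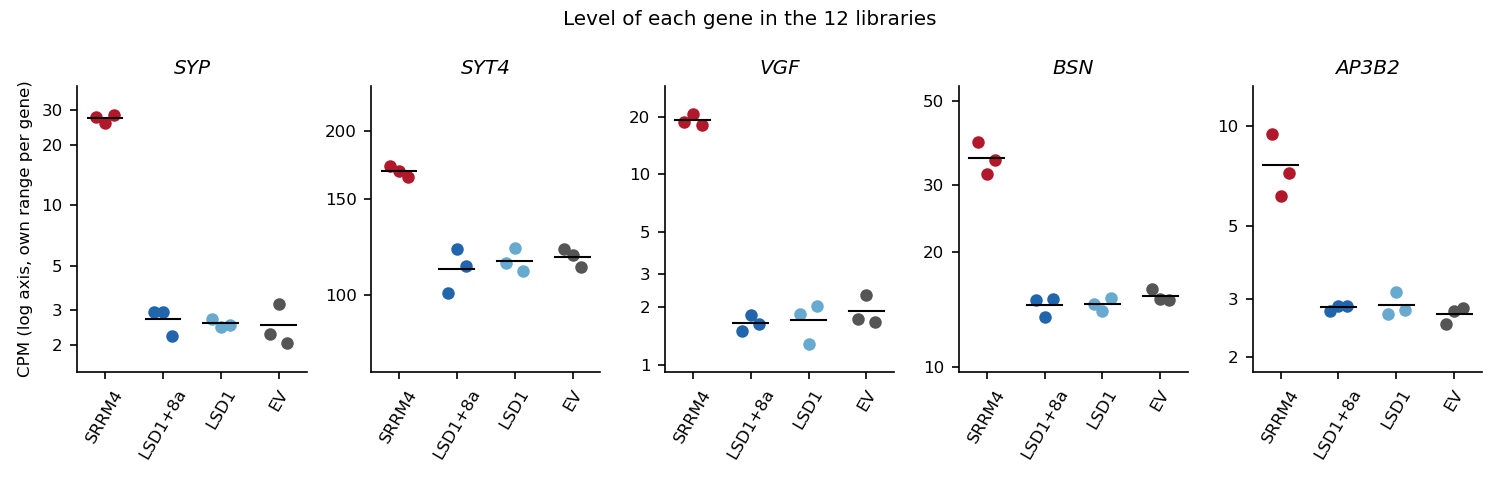
CPM of the 5 genes (log axis with its own range for each gene) in the 3 libraries of each group, with a bar at the group mean. The SRRM4 points stand above all others in each panel, for SYP at 25.8 to 28.1 CPM against 2.05 to 3.2 CPM with EV, and the other 3 groups overlap.

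SYP, the vesicle membrane protein, had 27.5, 25.8 and 28.1 CPM in SRRM4 libraries, 2.92, 2.93 and 2.21 CPM with LSD1+8a, 2.71, 2.47 and 2.53 CPM with LSD1, and 2.29, 3.2 and 2.05 CPM with EV. The SRRM4 libraries had a coefficient of variation of 4.35%, and the second EV library was the highest of the rest. In raw counts this was 281 to 317 reads per SRRM4 library, against 27 to 43 per EV library. The log2 fold change over EV was 3.42 (SE 0.13), the second largest of all 13001 genes. In deposited TPM, a scale on which genes can be compared, SYP reached 16.7 ± 1.04 with SRRM4 and 1.62 ± 0.568 with EV (SD, n = 3 each). At that level it exceeded 45.6% of the listed genes in SRRM4 cells and 2.99% in EV cells.

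SYT4, of the calcium sensor family, was already abundant in the control cells. It had 173, 169 and 165 CPM with SRRM4, 101, 121 and 113 CPM with LSD1+8a, 115, 122 and 111 CPM with LSD1, and 121, 119 and 113 CPM with EV. The lowest SRRM4 library lay above the highest of the other 9, and the first LSD1+8a library was the lowest of all. The log2 fold change over EV was 0.52 (SE 0.05), which placed SYT4 at rank 196 of all genes. On the TPM scale its level was 80.5 ± 3.13 with SRRM4 and 58.2 ± 1.98 with EV (SD, n = 3 each), above 85.7% and 80.4% of the listed genes. The smallest fold of the 5 was thus the largest difference in amount, 22.3 TPM against 15.1 TPM for SYP, 9.21 for VGF, 2.68 for AP3B2 and 1.57 for BSN.

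VGF, the granule cargo, had 18.9, 20.8 and 18.2 CPM with SRRM4, 1.5, 1.82 and 1.64 CPM with LSD1+8a, 1.83, 1.28 and 2.03 CPM with LSD1, and 1.74, 2.31 and 1.67 CPM with EV. These were 199 to 226 reads per SRRM4 library, while every other library had 15 to 31. The groups other than SRRM4 overlapped, and the SRRM4 libraries stood clear of them. The log2 fold change over EV was 3.33 (SE 0.15), the fourth largest of all genes. In TPM the level was 10.3 ± 0.574 with SRRM4 and 1.05 ± 0.186 with EV (SD, n = 3 each), so VGF exceeded 32.1% of the listed genes in SRRM4 cells and 1.09% in EV cells.

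BSN, the active zone scaffold, had 39.1, 32.2 and 35.0 CPM with SRRM4, 15, 13.6 and 15.1 CPM with LSD1+8a, 14.7, 14.1 and 15.2 CPM with LSD1, and 16.0, 15.1 and 15 CPM with EV. The first SRRM4 library was the highest, and the 9 libraries of the other groups lay between 13.6 and 16.0 CPM. The log2 fold change over EV was 1.2 (SE 0.08), at rank 36 of all genes. BSN is a long transcript, so its 350 to 451 reads per SRRM4 library came to only 2.88 ± 0.315 TPM, against 1.31 ± 0.116 TPM with EV (SD, n = 3 each).

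AP3B2, the adaptor subunit, had 9.45, 6.16 and 7.23 CPM with SRRM4, 2.77, 2.85 and 2.87 CPM with LSD1+8a, 2.71, 3.15 and 2.78 CPM with LSD1, and 2.53, 2.76 and 2.82 CPM with EV. The SRRM4 libraries varied by 22.1% (coefficient of variation), against 5.68% with EV, and the lowest of them was still above every other library. The first SRRM4 library had 109 reads (exact 95% Poisson interval 89.5 to 131, counting error only) and the second 67 (51.9 to 85.1), so those intervals do not meet. The log2 fold change over EV was 1.49 (SE 0.18), at rank 22 of all genes.

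The order of the 5 genes by TPM was SYT4, SYP, VGF, AP3B2 and BSN in SRRM4 cells, and no neighbours in that order overlapped. With EV the order below SYT4 was AP3B2 (1.38 to 2.93 TPM), SYP (1.17 to 2.26), BSN (1.2 to 1.43) and VGF (0.92 to 1.26), and each of these neighbours overlapped. In the authors' deposited table the log2 fold changes of SRRM4 over EV were 3.43 for SYP, 0.52 for SYT4, 3.34 for VGF, 1.21 for BSN and 1.5 for AP3B2. Of all genes tested, 4.47% were called higher and 3.22% lower with SRRM4 than with EV, at a Benjamini-Hochberg adjusted p under 0.05 in edgeR's quasi-likelihood test. Nothing is read from these shares for the 5 genes, since SRRM4 levels entered their choice. Upper-quartile scaling gave 497 higher and 561 lower genes, against 581 and 418 with TMM.

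Set against the other transfections in place of EV, the 5 genes gave similar sizes. The log2 fold changes of SRRM4 over LSD1+8a were 3.33 for SYP, 0.60 for SYT4, 3.54 for VGF, 1.29 for BSN and 1.43 for AP3B2. Those of SRRM4 over LSD1 were 3.39, 0.55, 3.48, 1.28 and 1.4 in the same gene order. These comparisons use the same 3 SRRM4 libraries and are no independent evidence. The share of all genes called higher was 4.42% over LSD1+8a and 4.38% over LSD1, and the share called lower was 3.17% and 2.67%.

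**Figure D2:**
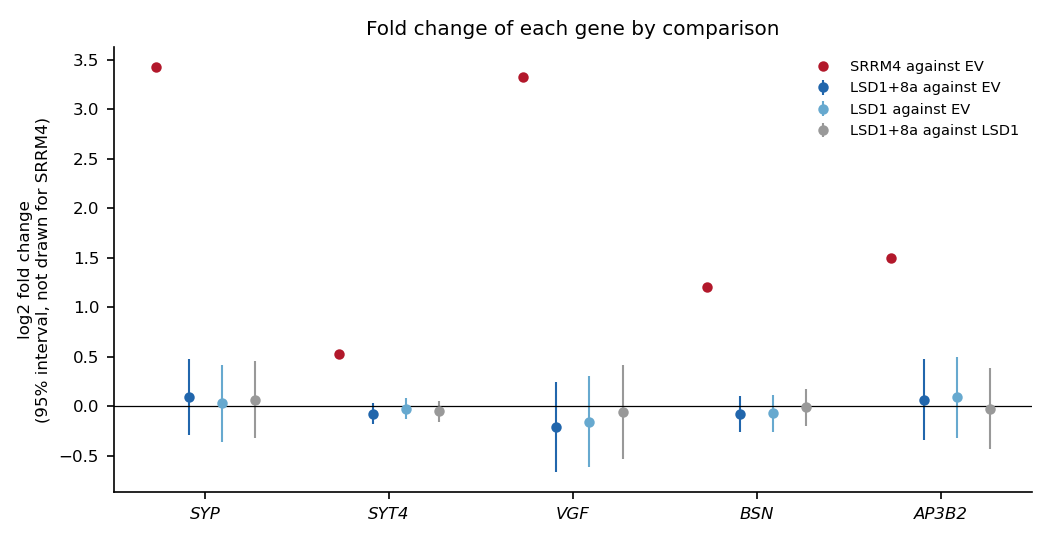
Log2 fold change of the 5 genes (points) for SRRM4, LSD1+8a and LSD1 each against EV and for LSD1+8a against LSD1, with 95% intervals from the edgeR fit for the comparisons without SRRM4. The SRRM4 values run from 0.52 for SYT4 to 3.42 for SYP, and the 15 intervals drawn include 0.

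Neither LSD1 form gave a call for any of the 5 genes. The fold changes of these comparisons leave out the SRRM4 libraries, though those against EV share its 3 libraries. Their SE, intervals and p-values come from the fit of all 12 libraries, in which the SRRM4 libraries enter the shared estimate of the spread. For LSD1+8a against EV the log2 fold changes were 0.10 for SYP (SE 0.19), -0.07 for SYT4 (SE 0.05), -0.21 for VGF (SE 0.22), -0.08 for BSN (SE 0.09) and 0.07 for AP3B2 (SE 0.20), with adjusted p from 0.874 to 0.984 in edgeR. The 95% intervals of these folds were 0.82 to 1.39 for SYP, 0.88 to 1.02 for SYT4, 0.63 to 1.19 for VGF, 0.83 to 1.07 for BSN and 0.79 to 1.39 for AP3B2. Of all genes 0.285% were called higher and 0.0615% lower in this comparison.

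LSD1 against EV gave log2 fold changes of 0.03 for SYP, -0.02 for SYT4, -0.15 for VGF, -0.07 for BSN and 0.09 for AP3B2 (adjusted p in edgeR 0.950 to 0.991). The background was 0.0462% of genes called higher and 0.0538% lower. LSD1+8a against LSD1, whose fold changes share no library with those of SRRM4 against EV, gave 0.07, -0.05, -0.05, -0.0095 and -0.02 in the same gene order (adjusted p in edgeR 0.943 to 0.999). Of all genes, 0.208% were called higher and 0.115% lower. Over these 10 values the 95% intervals of the fold reached lowest for VGF (0.65 to 1.23) and highest for AP3B2 (0.80 to 1.42), both for LSD1 against EV. In the authors' deposited table the unadjusted p-values of the 5 genes were 0.201 to 0.798 for LSD1+8a and 0.558 to 0.901 for LSD1 over EV.

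SYP, BSN and AP3B2 each have a close paralog in the tables, namely SYPL1 for SYP, PCLO (piccolo) for BSN and AP3B1 for AP3B2. SYP made up 24.5 ± 0.880% of the summed SYP and SYPL1 TPM with SRRM4, 2.51 ± 0.449% with LSD1+8a, 2.42 ± 0.337% with LSD1 and 2.65 ± 1.16% with EV (SD, n = 3 each). SYPL1, a synaptophysin-like protein of transport vesicles, fell to 57.6 ± 7.90 CPM with SRRM4, against 74.6 ± 3.47 CPM with EV (log2 fold change -0.37, adjusted p = 0.00323 in edgeR). That call ended with limma on TPM. SYP remained below SYPL1 in each library.

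AP3B2 made up 38.4 ± 0.800% of the AP-3 beta subunit TPM with SRRM4, 17.3 ± 1.71% with LSD1+8a, 15.8 ± 4.98% with LSD1 and 17 ± 5.49% with EV (SD, n = 3 each). The narrow SD with SRRM4 does not reflect the counts of AP3B2. Its SRRM4 libraries had 4.74, 4.51 and 4.66 TPM from 109, 67 and 79 reads, and their CPM varied by 22.1%. AP3B1, the ubiquitous beta subunit, had a log2 fold change of -0.24 and was not called (adjusted p = 0.0508 in edgeR). It was called with upper-quartile scaling and in a fit of only SRRM4 and EV, but not in the other 14 of 16 alternative settings. BSN made up 56.9 ± 3.59% of BSN and PCLO TPM with SRRM4, 32.8 ± 2.48% with LSD1+8a, 28.4 ± 4.74% with LSD1 and 39.4 ± 7.22% with EV (SD, n = 3 each). PCLO, the related active zone scaffold, stood at 17.7 ± 0.253 CPM with SRRM4 and 16.0 ± 0.958 CPM with EV and was not called (adjusted p = 0.367 in edgeR). Its TPM varied more than its counts, from 1.59 to 2.59 between EV libraries.

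**Figure D3:**
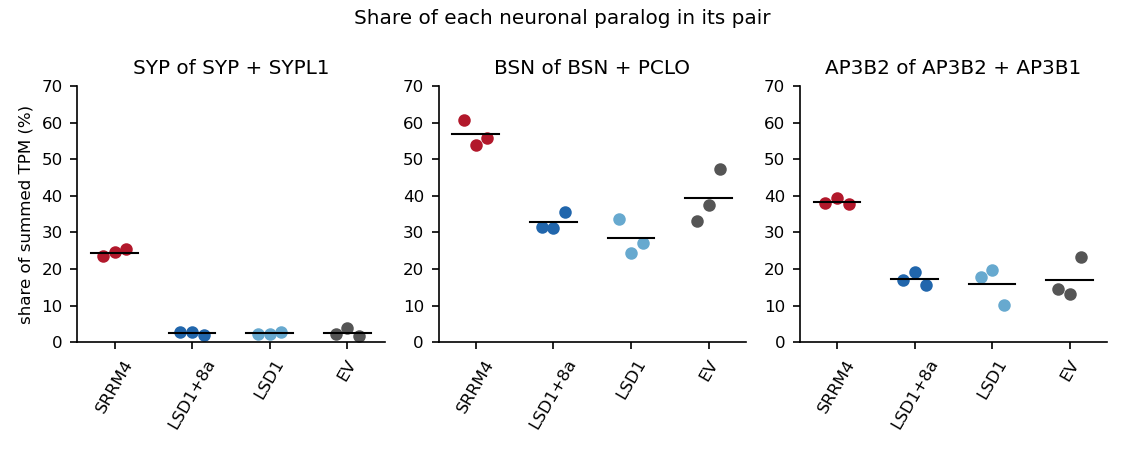
Share (%) of SYP, BSN and AP3B2 in the summed TPM of the gene and its paralog, per library, with a bar at the group mean. With SRRM4 the shares are 23.6 to 25.4%, 53.9 to 60.8% and 37.9 to 39.3%, above all libraries of the other groups. The TPM of AP3B2 did not run in parallel with its counts.

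Most other genes of the vesicle machinery were not called. Besides the 5 genes, 10 lists of vesicle genes named 256 genes, of which 164 were measured. With SRRM4 against EV, 18 of the 164 were higher, 4 were lower and 142 were not called. That is 11% higher and 2.44% lower, beside the 4.47% and 3.22% of all genes. The lists were drawn up with earlier results of these data known, so their shares are descriptions and no independent evidence. The median log2 fold change of the 164 was 0.0046, against -0.0011 for all genes tested. Of the 18, 2 were more than 2-fold higher, both of the fusion machinery, beside 44 of the 581 called higher among all genes. With limma on TPM 9 were called higher (NAPB, STX1A, CPLX1, PTPRN2, SCAMP5, BIN1 and 3 proton pump subunits) and 2 lower (RIMS1 and PPFIA2). Over all genes limma on log2(TPM + 1) called 254 higher and 73 lower.

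Among SNAREs and fusion factors 4 of 33 rose, 12.1% beside 4.47% of all genes. None was called lower (2 were lower at an unadjusted p under 0.05). NAPB, the neuronal beta-SNAP that helps recycle SNARE complexes, rose to 34.5 ± 2.5 CPM with SRRM4, against 13.2 ± 1.2 CPM with EV (log2 fold change 1.38, SE 0.08). STX1A, the plasma membrane SNARE syntaxin-1A of neurons, rose to 12.7 ± 0.325 CPM, against 5.49 ± 0.699 CPM with EV (1.21, SE 0.13). CPLX1, complexin-1, which clamps the assembled SNARE complex, rose to 22.8 ± 1.90 CPM, against 11.8 ± 1.81 CPM (0.95, SE 0.10). STXBP5L, a tomosyn, rose by 0.19 on the log2 scale (adjusted p = 0.0385), and this call was lost without any 1 of the SRRM4 libraries or EV replicate 1 or 2, and in DESeq2.

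Among other vesicle membrane genes 2 of 19 rose (10.5%) and 1, SYPL1, fell (5.26%), beside 4.47% and 3.22% of all genes. PTPRN2, a transmembrane protein of dense-core granules, rose to 4.95 ± 0.561 CPM with SRRM4, against 2.82 ± 0.394 CPM with EV (0.81, adjusted p = 0.00529). SCAMP5, a neuronal secretory carrier membrane protein, rose by 0.39. SV2C, a vesicle glycoprotein, stood at -0.38 and was not called. In the synaptotagmin and calcium sensor list, which SYT4 belongs to, none of 11 other genes was called by edgeR, and 1 was lower at an unadjusted p under 0.05. The 4 with the smallest p were SYT15 (0.29), SYTL1 (0.09), ESYT1 (-0.10) and ESYT2 (-0.07), of which ESYT1 was called lower with upper-quartile scaling and without SRRM4 replicate 2.

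In the granule cargo list, to which VGF belongs, 3 of 25 other genes were measured and none was called by edgeR or had an unadjusted p under 0.05. These were PCSK1N, an inhibitor of prohormone convertase 1 (0.12), the neuropeptide galanin GAL (0.0091) and nesfatin precursor NUCB2 (-0.09). The granins CHGA, CHGB and SCG2 were in this list but not among the 13001 listed genes, so they could not be analysed. Of 9 prohormone processing enzymes PCSK7 rose by 0.20 (adjusted p = 0.00389 in edgeR), a call that was lost with limma on TPM, and PCSK6 (-0.13), PAM (-0.27) and FURIN (-0.09) were not called.

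Active zone genes other than BSN went both ways, with 2 of 22 higher and 2 lower (9.09% each, beside 4.47% and 3.22% of all genes). RIMS1, a release site scaffold, fell to 30.9 ± 0.2 CPM with SRRM4, against 41.9 ± 0.997 CPM with EV (log2 fold change -0.44), and the liprin PPFIA2 fell to 132 ± 2.81 CPM, against 159 ± 3.66 CPM (-0.27). The liprin PPFIA3 rose by 0.36 and the scaffold GIT1 by 0.16. Both lost their calls with limma on TPM, and GIT1 also in DESeq2 and without SRRM4 replicate 1 or 2 or EV replicate 3. Among the AP-3 subunits other than the beta pair, AP3D1 rose by 0.12 (adjusted p = 0.0243), AP3M2, the neuronal mu subunit, fell by 0.21 (adjusted p = 0.00986), and AP3S2 (0.08), AP3M1 (0.03) and AP3S1 (-0.04) were not called in edgeR. AP3D1 lost its call without SRRM4 replicate 2 or 3 or EV replicate 1 or 2, and AP3M2 without SRRM4 replicate 1 and in DESeq2.

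The endocytic and acidification genes that were called were all higher, by less than 2-fold. Beside 4.47% of all genes, the share called higher was 20% in vesicle recycling and 17.6% of proton pump subunits. It was 6.25% of AP-1, AP-2 and AP-4 subunits. In vesicle recycling 4 of 20 rose, namely the adaptor STON2 (0.65), the lipid phosphatase SYNJ1 (0.47), EPS15L1 (0.21) and the amphiphysin BIN1 (0.18). SYNJ1 lost its call with limma on TPM, and STON2, EPS15L1 and BIN1 lost theirs in DESeq2 and without at least 3 of the 6 libraries left out in turn. Of 17 proton pump subunits 3 rose, ATP6V1B2 (0.27), ATP6V0C (0.24) and ATP6V0B (0.21), with calls in all 16 alternatives. Of 16 subunits of AP-1, AP-2 and AP-4 only AP2A1 rose (0.14), and its call was lost without SRRM4 replicate 3 or EV replicate 1. Of 8 measured genes in a list of other neuroendocrine and neuronal genes, which includes REST, 2 rose (25%, beside 4.47% of all genes). These were the neuronal tubulin TUBB3 (0.92, 35.0 ± 0.895 CPM with SRRM4 and 18.5 ± 2.59 CPM with EV) and the transcription factor ONECUT2 (0.49), whose call was lost with limma on TPM. The Notch ligand DLL3 (-0.15) and the neurofilament NEFL (-0.27) were not called. REST itself stood at 50.4 ± 1.54 CPM with SRRM4 and 51.2 ± 2.99 CPM with EV (log2 fold change -0.02, adjusted p = 0.873 in edgeR), a sign that turned to 0.11 with limma on TPM.

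**Figure D4:**
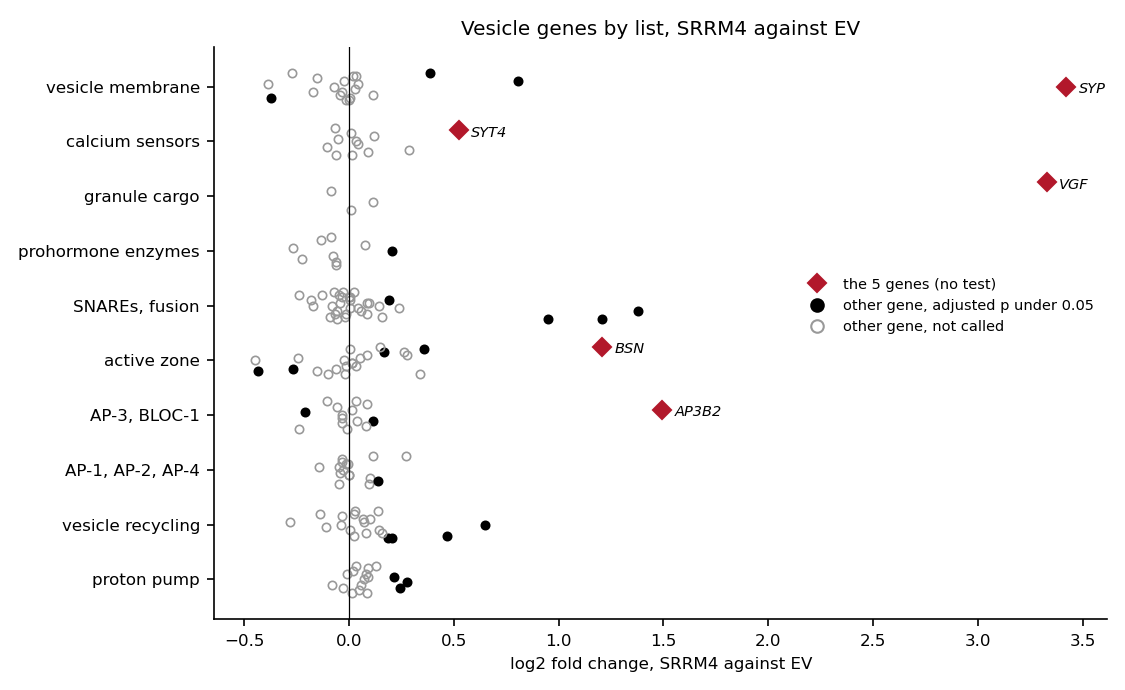
Log2 fold change of SRRM4 against EV (horizontal axis) for measured genes of 10 vesicle lists (rows). Diamonds are the 5 genes, filled points other genes with an adjusted p under 0.05 and open points genes not called. NAPB at 1.38 and STX1A at 1.21 are the filled points farthest right, and most points lie near 0.

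Over LSD1+8a, 23 of the 164 other vesicle genes (14%) were higher with SRRM4 and 7 (4.27%) lower, beside 4.42% and 3.17% of all genes. Over LSD1, 19 (11.6%) were higher and 6 (3.66%) lower, beside 4.38% and 2.67% of all genes. The count over LSD1+8a was 15 higher without SRRM4 replicate 1 or LSD1+8a replicate 3, where higher calls over all genes also dropped, to 402 and 379 against 574. It was 4 lower without SRRM4 replicate 1, LSD1+8a replicate 2 or LSD1+8a replicate 3, where lower calls over all genes were 251, 241 and 230 against 412. The count over LSD1 was 10 higher without SRRM4 replicate 2 or LSD1 replicate 2, where all genes gave 329 and 374 higher calls against 569. With LSD1+8a and with LSD1 against EV, none of the 164 was called by edgeR. DESeq2 called none either, but for LSD1 against EV it gave an adjusted p to only 7 of the 164. At an unadjusted p under 0.05 in edgeR, 3 of the 164 (1.83%) were higher and 9 (5.49%) lower with LSD1+8a, beside 3.59% and 3.23% of all genes. With LSD1 3 (1.83%) were higher and 6 (3.66%) lower, beside 3.09% and 2.8% of all genes. With LSD1+8a against LSD1 the liprin PPFIA4 was called lower (11.2 ± 1.67 CPM with LSD1+8a and 18.9 ± 1.74 CPM with LSD1, log2 fold change -0.76, adjusted p = 0.0424 in edgeR). It was named after its value was seen, and the call was lost without LSD1+8a replicate 1 or 3 or without any 1 of the LSD1 libraries.

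Counts and TPM of AP3B2 did not run in parallel. TPM divided by CPM, which depends on the transcript length the authors' pipeline assigned, ranged from 0.431 to 1.04 between libraries for AP3B2, a 2.41-fold spread that exceeded that of 98.6% of 12963 genes. The median gene spread 1.18-fold. SYP spread 1.24-fold, SYT4 1.10-fold, VGF 1.09-fold and BSN 1.29-fold. The third EV library had 2.93 TPM of AP3B2 from 37 reads, whereas the second had 1.56 TPM from the same number. The 3 SRRM4 libraries had 4.74, 4.51 and 4.66 TPM from 109, 67 and 79 reads. The fold of AP3B2 over EV was 2.37 in mean TPM and 2.82 in counts, and the order of its libraries within a group is therefore uncertain. In GENCODE v29 (GRCh38), SYP, BSN and AP3B2 each overlap an antisense gene (SYP-AS1, BSN-AS1 and CPEB1-AS1), and reads of such partners cannot be told apart where counting ignores strand, which the sources used here do not state. AP3B2 also overlaps the processed pseudogene AC105339.4, which lies on the same strand. The part of these overlaps in the values was not tested.

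**Figure D5:**
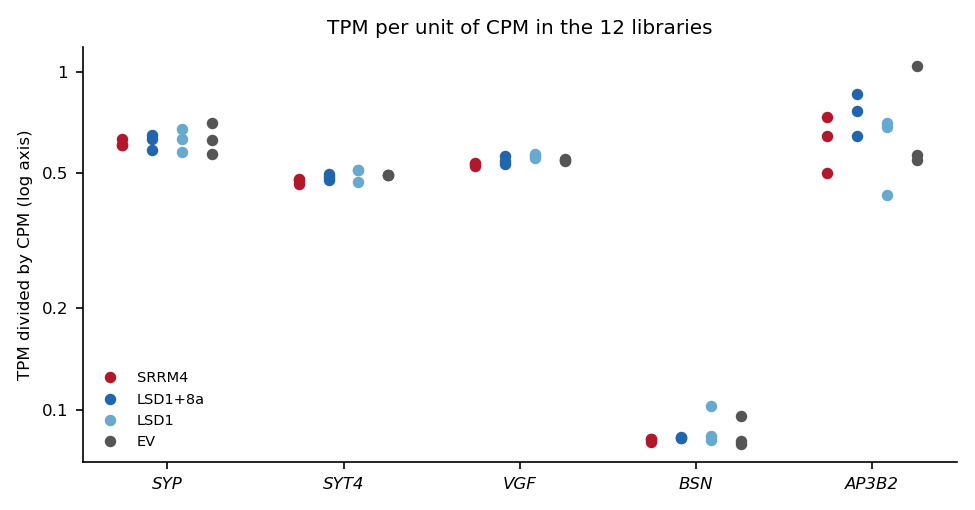
Deposited TPM divided by CPM (log axis) for the 5 genes, 1 point per library, coloured by group. AP3B2 spreads from 0.431 to 1.04, while the points of SYT4 lie between 0.466 and 0.513.

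Across the 12 libraries the log2 CPM of the 5 genes ran together, with Pearson's r from 0.94 (SYT4 and AP3B2) to 0.99 (SYP and VGF). These values reflect mainly the contrast of 3 SRRM4 libraries with the other 9. After each group's mean was removed, r ranged from -0.30 (VGF and AP3B2) to 0.55 (BSN and AP3B2). The genes most alike to SYP over the 12 libraries were CDIP1, CDKN1A and FDXR (r = 0.994, 0.993 and 0.988), which are known as p53 targets. For VGF they were BTG2 (r = 0.995), FDXR (0.993) and CDKN1A (0.991). For BSN they were the neuronal stathmin STMN3, the cadherin CELSR3 and FDXR (r = 0.99 each), for SYT4 they were TP53I3 (r = 0.97), STMN3 and FDXR (r = 0.96 each), and for AP3B2 they were RFX7 (r = 0.98), SERPINB5 and FDXR (r = 0.97 each). Their sizes differed widely: FDXR averaged 72.2 CPM with SRRM4 and 45.4 CPM with EV, and STMN3 52.5 and 9.07 CPM.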

How the data were processed

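RNA of 12 LNCaP libraries in 4 groups of 3 was measured. The authors deposited whole-number counts and TPM for each gene symbol. The authors' deposited comparison table holds log2 fold changes and p-values of each transfection over EV. Among tools, STAR 2.5.3a and RSEM 1.2.31 appear in the submitters' processing notes, as does the build hg19, with no step given. Library totals were 10.9 to 13.6 times 1e6 counts.

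Counts were scaled by TMM, filtered with filterByExpr (0 of 13001 genes removed) and fitted together over the 4 groups with no replicate block. The 6 comparisons used edgeR's robust quasi-likelihood test (edgeR 4.0.16, R 4.3.3). P-values were adjusted over all genes by the Benjamini-Hochberg method and called under 0.05. Errors are SD over 3 libraries or SE of a fit, and 95% intervals use the fit's own t distribution. The procedure was tested on simulated counts for SRRM4 against EV, with planted fold changes and a spread estimated from these libraries. The comparisons without SRRM4 were not tested in this way. Counts of each replicate pair varied more than sampling noise (chi-square per degree of freedom 1.44 to 2.88).

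The 5 genes and the 13 gene lists were chosen with earlier results of these data known. Other genes named were paralogs, AP-3 subunits, called vesicle genes, up to 4 per list with the smallest p for SRRM4 against EV, the label checks KDM1A and KLK3, and per gene the 3 with the highest r (average log2 CPM of at least 0). A gene that this rule names is not reported here. Alternatives were other size factors, filters, DESeq2 1.42.0, limma 3.58.1 on log2(TPM + 1) or log2(TPM + 0.1), a replicate block, fits of 2 groups, removal of KDM1A and each library left out.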

Additional observations from a re-analysis of the deposited data

How the results depend on the processing

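Under 10 settings other than leaving out libraries, the log2 fold change of SRRM4 over EV stayed above 0 for all 5 genes, at 2.77 to 3.43 for SYP, 0.46 to 0.52 for SYT4, 2.46 to 3.34 for VGF, 0.75 to 1.21 for BSN and 0.97 to 1.5 for AP3B2. The lowest values came from limma on log2(TPM + 1), whose pseudocount lowers the folds of genes near 1 TPM. Leaving out 1 of the 6 libraries gave 3.29 to 3.64, 0.49 to 0.55, 3.24 to 3.49, 1.13 to 1.27 and 1.31 to 1.63 in the same gene order.

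None of the 5 genes was called in LSD1+8a against EV, LSD1 against EV or LSD1+8a against LSD1 under any of these settings, nor without 1 library (smallest adjusted p over all alternatives 0.625, for LSD1+8a against EV). DESeq2 gave these genes no adjusted p for LSD1 against EV. AP3B2 changed sign with limma on TPM, to -0.080 (TPM + 1) and -0.11 (TPM + 0.1) for LSD1 over EV, and to 0.20 and 0.30 for LSD1+8a over LSD1. Without 1 library the log2 fold changes of SYP, SYT4, VGF, BSN and AP3B2 lay at -0.032 to 0.31, -0.14 to -0.0041, -0.30 to -0.046, -0.11 to -0.033 and 0.023 to 0.098 for LSD1+8a over EV. For LSD1 over EV they lay at -0.099 to 0.25, -0.063 to 0.0072, -0.29 to 0.012, -0.097 to -0.041 and 0.024 to 0.13, and for LSD1+8a over LSD1 at 0.0033 to 0.18, -0.11 to 0.019, -0.22 to 0.078, -0.037 to 0.038 and -0.068 to 0.043.

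Of the other 164 vesicle genes, limma on TPM called 9 higher and 2 lower with SRRM4 over EV, and 6 higher and 2 lower over LSD1+8a and over LSD1, with both pseudocounts. Over all genes limma on log2(TPM + 1) gave 254 higher and 73 lower calls over EV. It gave 134 and 77 over LSD1+8a, and 128 and 57 over LSD1. DESeq2 called 4 lower over LSD1+8a (156 of the 164 had an adjusted p) and 12 higher over LSD1. Its calls over all genes were 213 lower over LSD1+8a and 325 higher over LSD1. Without 1 library the counts among the 164 ranged from 12 to 15 higher and 4 to 6 lower over EV. They were 15 to 24 and 4 to 6 over LSD1+8a, and 10 to 15 and 4 to 7 over LSD1. Calls over all genes also moved, to 393 to 476 higher and 262 to 334 lower over EV. Those over LSD1+8a were 341 to 590 and 220 to 416, and those over LSD1 were 329 to 461 and 159 to 287. PPFIA4, the only vesicle gene called in LSD1+8a against LSD1, was not called (0 lower) with upper-quartile factors or limma on TPM, and the count was 0 to 1 without 1 library. For LSD1+8a over EV the count was 0 to 1 lower without 1 library. Lower calls over all genes without 1 library were 6 to 16 for LSD1+8a over LSD1 and 3 to 24 for LSD1+8a over EV. Small values that were not called changed sign for GAL with upper-quartile factors (-0.0036), SYT15 (-0.0095 and -0.011), NUCB2 (0.041 with both), COL1A1 (-0.00092 and -0.0025) and REST (0.11 and 0.12) with limma on TPM + 1 and TPM + 0.1. Without 1 library the values lay at -0.027 to 0.050 for GAL, -0.090 to 0.017 for AP3S1, -0.017 to 0.21 for COL1A1, -0.040 to 0.075 for AP3M1 and -0.048 to 0.026 for REST. The cause was not tested.

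Over all genes, SRRM4 against EV gave 328 higher and 235 lower calls in DESeq2 and 254 and 73 with limma on TPM + 1, against 581 and 418 in edgeR, and lower calls numbered 262, 268 and 277 without SRRM4 replicate 1, 2 or 3.

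A replicate block changed no call of the 5 genes in the comparisons without SRRM4 and left SYP at 3.42 for SRRM4 over EV. It gave 18 higher and 4 lower vesicle genes for SRRM4 over EV, beside 518 higher and 369 lower calls over all genes. Same-numbered libraries did not vary together (r of -0.24 to 0.10 in 18 pairs over 10650 genes, with 1 of 12 libraries closest to its own number), so the numbers are treated as names. Depth limits VGF, SYP and AP3B2 outside the SRRM4 group, where 15 to 43 reads per library leave wide 95% intervals of the fold (0.63 to 1.19 for VGF in LSD1+8a against EV).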
